A study of Homo sapiens with 6 samples.

Results

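Chemokines, inflammatory cytokines and their receptors were followed in the human line FUJIOKA, which derives from acute myeloid leukaemia. A fixed list of 47 gene symbols was looked up in the authors' deposited differential expression table, which lists 63236 genes. All 47 symbols were found. Both groups of 3 libraries came from cells that carry a Tet-pLKO-puro lentiviral vector, in which doxycycline switches on the shRNA. In shNEG the vector encodes a scrambled control shRNA that targets no gene, and in shSPINK2 an shRNA against SPINK2, a Kazal-type serine protease inhibitor. The comparison addresses how silencing SPINK2 changes the transcriptome of these cells. The methods describe 1 SPINK2 shRNA and the sample labels 2, without saying which of them each library carries, and the time on doxycycline is not given for the RNA. Both groups were made from 1 cell line, and nothing says that the 3 libraries of a group came from separate cultures, so p-values measure the spread between these libraries, which may be technical.

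Chemokines are small secreted proteins that draw leukocytes along a gradient through receptors coupled to G proteins. CXC chemokines such as CXCL8 act mainly on neutrophils through CXCR1 and CXCR2 or, as with CXCL10, on T and NK cells through CXCR3, while CC chemokines such as CCL2 and CCL5 act on monocytes and lymphocytes through CCR receptors. TNF and interleukin-1 beta are early inflammatory cytokines of monocytes and macrophages. Interleukin-1 beta and interleukin-18 are made as precursors and cut by caspase-1, and their action is held back by a receptor antagonist, decoy receptors or a soluble binding protein.

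The files give, for each gene, the mean over the 6 libraries of read counts divided by DESeq2's size factors (called the mean below) and the log2 fold change (shSPINK2 over shNEG), its standard error (SE) and its adjusted p-value. The means sum to 38425214 reads. Whole reads of each library were recovered from these values, and a gene's reads are given below in 1 fixed order of libraries, by falling size factor within shNEG and then within shSPINK2 (1.0028, 1.0006 and 0.9989, then 1.0332, 1.0094 and 0.9854). These size factors lie so close together that reads can be compared almost directly. Libraries of 1 group correlated at 0.9947 to 0.9968 and libraries of different groups at 0.9607 to 0.9640. These are Pearson's r of log2 normalized reads (1 added), across recovered genes with means from 50 to 3000. Genes are not independent replicates. SPINK2 had 56, 63 and 53 reads in shNEG, 7, 9 and 6 in shSPINK2 and a log2 fold change of -2.98 (SE 0.41, DESeq2 adjusted p = 2.41e-12). The leukocyte gene PTPRC and the myeloid genes SPI1 and CD33 had means of 7777 to 10672, whereas the stem cell markers CD34 and KIT were low (means 19.6 and 0.666). MPO was lower (log2 fold change -0.40) and ELANE, ANPEP, CD33 and PTPRC were higher (0.88, 0.82, 0.36 and 0.33) in shSPINK2, and the T cell receptor gene TRAC, was lower (1198 reads over the shNEG and 602 over the shSPINK2 libraries) while CD3E had 3 reads in all. The B cell gene CD79A was higher (0.59) and the collagen gene COL1A1 lower (-0.61), whereas MS4A1 had 2 reads in all and COL1A2 was listed at 0. The part of these markers in the results below was not tested. In bulk RNA, fewer cells that express a gene and less of its RNA per cell cannot be told apart.

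Of the 47 genes, 29 were expressed above the lowest mean that received an adjusted p-value (6.31), and 18 were not. CXCL9, CXCL12 and IL6 had a mean of 0. Among the 29, levels per length covered a wide range. TGFB1 (transforming growth factor beta 1) had 2920 normalized reads per kilobase of exon and CCL5 2608, followed by the receptors CXCR4 with 1386, CXCR2 with 641 and CX3CR1 with 541. CCR1 (343), IL18 (296), IL23A (247), IL1RN (241), IL10RB (184) and TNF (145) came next on this scale. The lowest were OSM with 4.00, CXCL16 with 3.14 and IL1R1 with 3.05 normalized reads per kilobase.

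The genes moved in both directions. At an adjusted p under 0.05 (DESeq2, in the authors' deposited table), 9 of the 29 tested genes were lower in shSPINK2, 10 were higher and 10 did not pass. The 19 that passed are 65.5% of the 29, beside 47.1% of all 17395 genes tested, where 24.4% were lower and 22.7% higher. Only 3 of the 19 changed more than 2-fold, namely CCL2 and TNF, which were lower, and CXCL10, which was higher. That is 10.3% of the 29 beside 4.28% of all tested genes (2.71% lower and 1.56% higher). The median log2 fold change of the 29 was -0.07 and the median of its absolute value 0.42, against 0.01 and 0.28 over all tested genes. Recovered reads were available for 28 of the 29, and normalized reads of the 2 groups did not overlap in 22 of these (78.6%). The share was 55.5% of the 14232 recovered genes with a mean under 3000. CCL5 and CXCR4, which are among the 22, lie above that mean. With 3 libraries against 3, an exact permutation test cannot give a p below 0.1, and each of these 22 genes has that value.

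**Figure D1:**
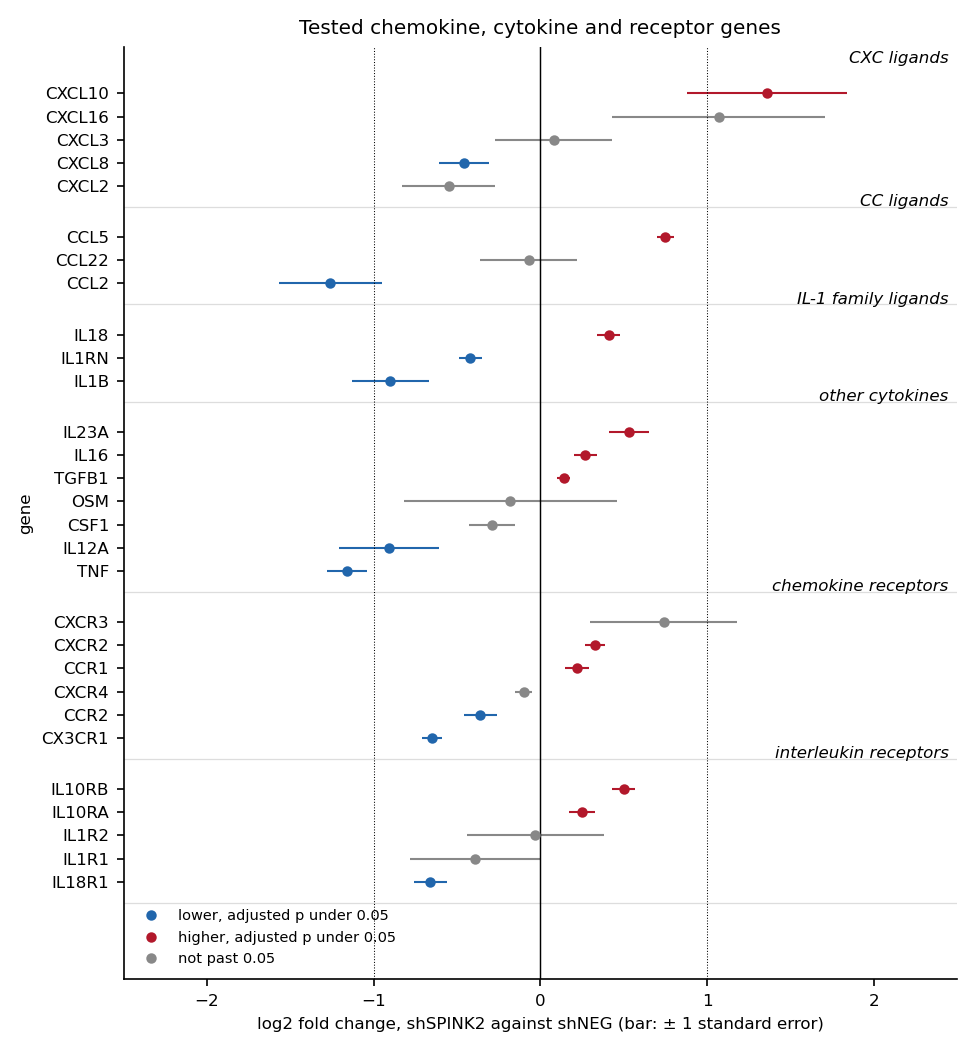
Log2 fold change (shSPINK2 over shNEG) on the horizontal axis for the 29 tested genes, listed by class, with bars of 1 standard error and dotted lines at a 2-fold change. Blue points are lower and red points higher at an adjusted p under 0.05, and every class holds both colours. CCL2 (-1.26), TNF (-1.16) and CXCL10 (1.36) are the coloured points beyond the dotted lines.

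The start regions of 5 of the genes that passed are shown, because they are textbook inducible cytokine promoters and because these genes moved in different directions. Each runs from 250 bases before to 50 bases after the RefSeq start of the gene (GRCh38.p14) and is written 5′ to 3′ on the strand of the gene. Capitals mark matches, on either strand, to the NF-kB consensus, to TGANTCA (the AP-1 core with any middle base) and to TATAAA. They also mark matches, on either strand, to the interferon response core (GAAA and GAAA with 2 bases between). TNF, CXCL8 and IL12A were lower in shSPINK2, and CXCL10 and IL23A were higher.
TNF (chr6:31575315-31575614, plus strand): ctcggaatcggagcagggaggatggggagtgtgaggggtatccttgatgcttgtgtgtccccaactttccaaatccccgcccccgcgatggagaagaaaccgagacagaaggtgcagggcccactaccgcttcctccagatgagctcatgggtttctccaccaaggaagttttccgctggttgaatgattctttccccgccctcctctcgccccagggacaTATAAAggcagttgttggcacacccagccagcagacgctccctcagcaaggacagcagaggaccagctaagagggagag
CXCL8 (chr4:73740319-73740618, plus strand): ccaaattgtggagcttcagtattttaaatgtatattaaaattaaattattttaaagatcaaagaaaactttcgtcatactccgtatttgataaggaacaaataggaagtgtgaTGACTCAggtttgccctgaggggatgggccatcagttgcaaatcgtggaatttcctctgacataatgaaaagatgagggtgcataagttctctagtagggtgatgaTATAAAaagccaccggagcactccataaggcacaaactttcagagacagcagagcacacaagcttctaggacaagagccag
IL12A (chr3:159988585-159988884, plus strand): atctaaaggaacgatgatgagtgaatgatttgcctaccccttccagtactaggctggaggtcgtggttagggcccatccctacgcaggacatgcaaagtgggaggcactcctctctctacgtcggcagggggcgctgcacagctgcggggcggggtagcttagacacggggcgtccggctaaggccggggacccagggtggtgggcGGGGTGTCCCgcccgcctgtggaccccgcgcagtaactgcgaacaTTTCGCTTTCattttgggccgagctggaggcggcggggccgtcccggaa
CXCL10 (chr4:76023448-76023747, minus strand): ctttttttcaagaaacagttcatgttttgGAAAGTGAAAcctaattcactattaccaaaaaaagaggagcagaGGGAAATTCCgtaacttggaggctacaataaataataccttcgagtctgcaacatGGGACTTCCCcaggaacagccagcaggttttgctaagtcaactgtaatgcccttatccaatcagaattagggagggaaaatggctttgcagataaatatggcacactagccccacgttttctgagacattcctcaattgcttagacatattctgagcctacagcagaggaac
IL23A (chr12:56338634-56338933, plus strand): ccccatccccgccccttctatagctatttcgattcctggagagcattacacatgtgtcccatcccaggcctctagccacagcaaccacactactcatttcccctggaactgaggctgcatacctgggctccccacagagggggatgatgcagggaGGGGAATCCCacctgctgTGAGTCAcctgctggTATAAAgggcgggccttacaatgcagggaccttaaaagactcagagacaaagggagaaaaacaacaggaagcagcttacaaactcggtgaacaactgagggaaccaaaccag

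At least 1 RefSeq window was matched for 36 of the 47 genes, with 55 windows in all, because some genes have several starts. The NF-kB consensus was found in 15 of the 36 (41.7%), against 13.3% of the 27305 genes with such a window. It was present in 2 of the 8 lower genes with a window, 3 of the 8 higher genes and 4 of the 7 that did not pass. The interferon response core was found in 5 of the 36 (13.9%, against 4.38% of all genes), among them the lower genes IL18R1, IL1RN and IL12A and the higher gene CXCL10. TGANTCA, which reads the same on both strands, was found in 9 (25.0%, against 9.37%) and TATAAA in 15 (41.7%, against 3819 of the 27305). In the windows printed above, CXCL10 holds the interferon response core and 2 matches to the NF-kB consensus, IL12A 1 match to each, IL23A the NF-kB consensus, TGANTCA and TATAAA, CXCL8 TGANTCA and TATAAA, and TNF only TATAAA. A gene with several matches was counted once, and a match is a description of the letters. It was counted if any of its windows matched. The number of windows per gene was not equalised between the 36 and all genes, so the shares are not strictly like for like. Only exact matches were taken. A sequence 1 letter away from the NF-kB consensus, such as tggaatttcc in the CXCL8 window, was neither marked nor counted. A window without a match is therefore not shown to lack a binding site. No one of these motifs was limited to the genes that fell or to those that rose.

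CXC ligands of neutrophils were weakly expressed, and 1 of them fell. CXCL8 (interleukin-8; ENSG00000169429.10, chr4:73740519-73743716, GRCh38), the main human neutrophil attractant, had 171, 220 and 222 reads in shNEG and 152, 149 and 148 in shSPINK2. The shSPINK2 libraries were nearly equal and all lay below the lowest shNEG library. Normalized reads were 204 ± 29.2 (SD, n = 3) and 148 ± 1.65, with a log2 fold change of -0.46 (SE 0.15, DESeq2 adjusted p = 0.00475). CXCL2, another CXCR2 ligand of the same cluster on chromosome 4, had 51, 57 and 47 reads against 44, 35 and 28, a log2 fold change of -0.55 (SE 0.28) that did not pass (DESeq2 adjusted p = 0.0993) although the groups did not overlap. CXCL3 was at 0.08 (SE 0.35) and CXCL1 had 3 reads in all, so these neighbours gave no call. CXCL1, CXCL2 and CXCL3 are close copies in sequence, and how the counting divided reads between them is not given.

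CXCL10 (ENSG00000169245.5, chr4:76021118-76023497), an interferon-induced ligand of CXCR3, showed the largest rise of the 29 and one of the lowest levels. It had 9, 7 and 11 reads in shNEG and 27, 24 and 19 in shSPINK2. Each shSPINK2 library exceeded the highest shNEG library. The normalized means were 8.99 ± 2.01 and 23.1 ± 3.48 (SD, n = 3), a log2 fold change of 1.36 (SE 0.48, DESeq2 adjusted p = 0.0105), and it no longer passed when the adjusted p had to be under 0.01. Of the other ligands of the same receptor, CXCL9 had no read. CXCL11 had 14 and 16 reads over the 3 libraries of shNEG and of shSPINK2, too few to be tested. CXCR3 itself had 13, 11 and 14 reads against 23, 19 and 22. These groups did not overlap, and the log2 fold change of 0.74 (SE 0.44) did not pass in DESeq2 (adjusted p = 0.167) but passed in edgeR on the recovered reads. CXCL16, a membrane-bound chemokine whose receptor is CXCR6, had 5, 4 and 8 reads against 14, 8 and 14, a log2 fold change of 1.07 (SE 0.64) that likewise did not pass in DESeq2 (adjusted p = 0.164) and passed in edgeR. CXCR6 had a log2 fold change of -0.47 (SE 0.44, DESeq2 adjusted p = 0.415).

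CC ligands divided. CCL2 (monocyte chemoattractant protein 1; ENSG00000108691.9, chr17:34255274-34257208) had 56, 45 and 63 reads in shNEG and 22, 25 and 22 in shSPINK2, a 2.40-fold lower level and the largest fall of the 29. Its normalized means were 54.6 ± 9.11 and 22.8 ± 1.78 (SD, n = 3), with a log2 fold change of -1.26 (SE 0.31, DESeq2 adjusted p = 1.38e-04). CCL5 (RANTES; ENSG00000271503.5, chr17:35871491-35880793), which attracts T cells, monocytes and eosinophils, was the most abundant chemokine per length and rose. It had 2847, 2626 and 2505 reads against 4537, 4706 and 4254, that is 2657 ± 168 and 4457 ± 182 normalized reads (SD, n = 3). The lowest shSPINK2 library lay far above the highest shNEG library, with a log2 fold change of 0.75 (SE 0.05, DESeq2 adjusted p = 2.67e-42). CCL22, a ligand of CCR4, was at -0.07 (SE 0.29).

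CCL3 and CCL4, chemokines made by activated monocytes, were below the level at which genes were tested. CCL3 had 5, 11 and 7 reads in shNEG and 1, 3 and 3 in shSPINK2, without overlap, and CCL4 had 6, 6 and 5 against 4, 3 and 5. Their near-identical copies CCL3L3 (log2 fold change -0.15, SE 0.49) and CCL4L2 (0.87, SE 0.41, DESeq2 adjusted p = 0.0705) were also counted as genes of their own, so the division of reads within each pair is uncertain. CCL7 and CCL20 had at most 5 reads over the 6 libraries. CCL23, a CCR1 ligand outside the 47 genes that lies between CCL5 and CCL3 on chromosome 17, had 442, 449 and 444 reads against 816, 833 and 912 and was higher (log2 fold change 0.93, SE 0.08, DESeq2 adjusted p = 1.22e-26). CCL5 and CCL23, which share CCR1, were thus both higher.

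Of the 6 tested chemokine receptors, 2 fell and 2 rose, so 66.7% passed beside 47.1% of all tested genes. With 6 genes, these shares are not told apart. CX3CR1 (the fractalkine receptor of patrolling monocytes; ENSG00000168329.13, chr3:39263495-39281735) fell from 2464, 2397 and 2391 reads to 1542, 1662 and 1464. Its normalized means were 2415 ± 36.1 and 1542 ± 90.9 (SD, n = 3), with a log2 fold change of -0.65 (SE 0.06, DESeq2 adjusted p = 2.22e-29), the smallest p among the lower genes of the list. CCR2, the receptor of CCL2 on classical monocytes, had 454, 461 and 427 reads against 331, 385 and 337 and a log2 fold change of -0.36 (SE 0.10, DESeq2 adjusted p = 9.48e-04). CCL2 and CCR2 were therefore both lower in these libraries, while the ligand of CX3CR1, CX3CL1, had 1 read in all. CXCR4, the receptor of CXCL12, had 4311, 4072 and 4101 reads against 4016, 4033 and 3715, a log2 fold change of -0.10 (SE 0.05) that did not pass (DESeq2 adjusted p = 0.0651). It passed as lower when fold changes were centred on their median, and CXCL12 was at 0.

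CXCR2 and CCR1 were higher. CXCR2 (ENSG00000180871.7, chr2:218125289-218137251), the receptor of CXCL8 and its relatives, had 1918, 1772 and 1789 reads in shNEG and 2228, 2401 and 2318 in shSPINK2, a log2 fold change of 0.33 (SE 0.06, DESeq2 adjusted p = 4.50e-08). CXCR1, which binds CXCL8 as well, had 13 and 10 reads over the 3 libraries of each group and was not tested. CCR1, which binds CCL3, CCL5 and CCL23, had 863, 857 and 800 reads against 1012, 984 and 961. The shSPINK2 values were close together after normalization, at 977 ± 2.60, against 839 ± 33.3 in shNEG (SD, n = 3), and the log2 fold change was 0.22 (SE 0.07, DESeq2 adjusted p = 0.00387). CCR1 and CCR2 lie within 1 cluster on chromosome 3 (chr3:46201711-46208313 and chr3:46353864-46360940) and moved in opposite directions, while CCR3 (0.55, SE 0.35), also of that cluster, did not pass. CCR7, which guides cells to lymph nodes, had 3 reads in all.

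**Figure D2:**
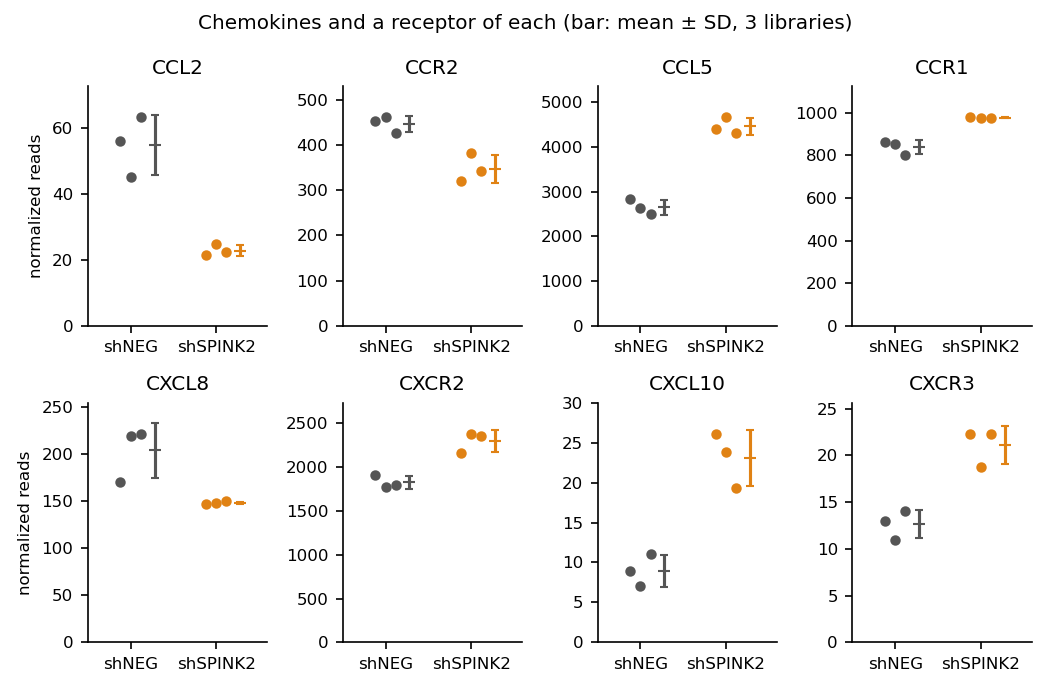
Normalized reads of 4 chemokines and of 1 receptor of each, on a vertical axis that starts at 0, with 1 point per library and the mean with its SD (3 libraries) beside them. CCL2 and CCR2 are lower in shSPINK2, CCL5 and CCR1 are higher, CXCL8 is lower while CXCR2 is higher, and CXCL10 and CXCR3 show separated groups at 7 to 27 reads per library.

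Within the interleukin-1 family, interleukin-1 beta and the receptor antagonist were both lower, while interleukin-18 was higher. IL1B (interleukin-1 beta; ENSG00000125538.11, chr2:112829751-112836816) had 82, 90 and 78 reads in shNEG and 44, 43 and 48 in shSPINK2, that is 83.3 ± 6.07 and 44.6 ± 3.53 normalized reads (SD, n = 3). Its log2 fold change was -0.90 (SE 0.23, DESeq2 adjusted p = 3.32e-04), so that the mean fell by 46.4%. IL1RN, which encodes the receptor antagonist and also lies on chromosome 2, was expressed at a higher level and fell less, from 1064, 1023 and 1009 reads to 752, 785 and 788 (log2 fold change -0.42, SE 0.07, DESeq2 adjusted p = 8.08e-09). IL1A had 3 reads in all. The signalling receptor IL1R1 (-0.39, SE 0.39) and the decoy receptor IL1R2 (-0.03, SE 0.41) were weakly expressed and did not pass. The shared receptor chain IL1RAP, from the list of pathway genes outside the 47, was at 0.09 (SE 0.07, DESeq2 adjusted p = 0.287), and SIGIRR, an inhibitory receptor of the family, was higher at 0.45 (SE 0.07, DESeq2 adjusted p = 2.94e-11).

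The ligand, the binding protein and both receptor chains of the interleukin-18 pathway passed, in different directions. Among all tested genes 47.1% passed. IL18 (ENSG00000150782.11, chr11:112143253-112164096) rose from 656, 674 and 656 reads to 880, 868 and 920, a log2 fold change of 0.41 (SE 0.07, DESeq2 adjusted p = 1.27e-07). IL18BP, the secreted protein that binds and neutralises interleukin-18, rose more, from 796, 805 and 767 reads to 2041, 2026 and 1804. Its log2 fold change of 1.30 (SE 0.06, DESeq2 adjusted p = 2.61e-90) corresponds to a 2.46-fold higher level, with no overlap between groups. Both chains of the receptor were lower. IL18R1, the binding chain (ENSG00000115604.10, chr2:102311529-102398777), had 423, 428 and 430 reads against 267, 286 and 263, a log2 fold change of -0.66 (SE 0.10, DESeq2 adjusted p = 6.41e-10). IL18RAP, the accessory chain that lies next to it, had 302, 300 and 282 reads against 119, 127 and 121, a log2 fold change of -1.28 (SE 0.13, DESeq2 adjusted p = 1.81e-20). These 2 genes end a row of receptor genes on chromosome 2 in which IL1R2 and IL1R1 did not pass and IL1RL1, which overlaps IL18R1, was not tested at a mean of 4.34. CASP1, which cuts the precursors of interleukin-1 beta and interleukin-18, had 3088, 3058 and 3047 reads against 2089, 2225 and 2238 and was lower (log2 fold change -0.50, SE 0.05, DESeq2 adjusted p = 4.66e-20).

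**Figure D3:**
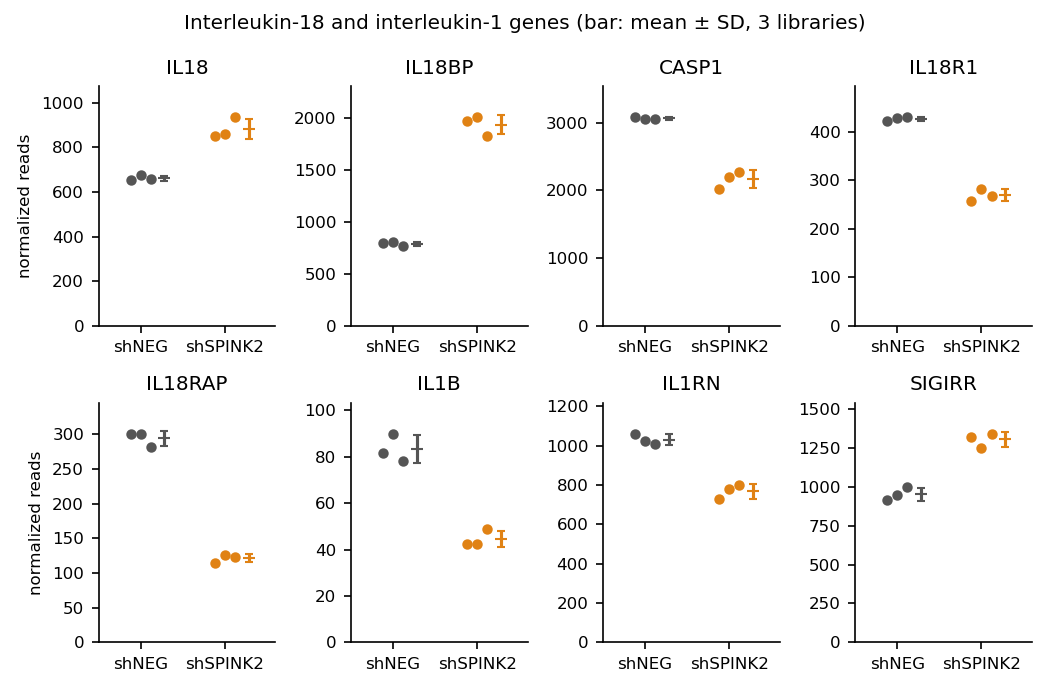
Normalized reads of 8 genes of the interleukin-18 and interleukin-1 pathways in each library, on a vertical axis that starts at 0, with the mean and its SD over 3 libraries beside the points. IL18, IL18BP and SIGIRR are higher in shSPINK2, and CASP1, IL18R1, IL18RAP, IL1B and IL1RN are lower. In each of the 8 panels the points of the groups do not overlap. All 8 genes had passed an adjusted p under 0.05, and 55.5% of the 14232 recovered genes with a mean under 3000 do not overlap either.

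Other parts of the activation machinery moved by at most 0.45 on the log2 scale. The inflammasome sensors AIM2 and NLRP3 were higher (log2 fold changes 0.45, SE 0.08, and 0.17, SE 0.05), the pore-forming GSDMD was slightly lower (-0.15, SE 0.05, DESeq2 adjusted p = 0.0135), and the adaptor PYCARD was at -0.07 (SE 0.07, DESeq2 adjusted p = 0.421).

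TNF (ENSG00000232810.3, chr6:31575565-31578336) fell in every shSPINK2 library. It had 338, 338 and 334 reads in shNEG and 154, 142 and 159 in shSPINK2. The shNEG libraries were nearly identical and each shSPINK2 library held at most 159 reads. Normalized means were 336 ± 1.79 and 150 ± 10.4 (SD, n = 3), with a log2 fold change of -1.16 (SE 0.12, DESeq2 adjusted p = 8.25e-20), a 2.24-fold lower level. Its neighbour LTA, encoding lymphotoxin alpha, had 5 reads in all. Of the TNF receptors, TNFRSF1A was at 0.02 (SE 0.04, DESeq2 adjusted p = 0.766) and TNFRSF1B was lower (-0.26, SE 0.05). ADAM17, the enzyme that sheds TNF, was at 0.04 (SE 0.05), whereas the related sheddase ADAM10, which releases CX3CL1 and CXCL16 from the membrane, fell from 4975, 5099 and 5099 reads to 2189, 2346 and 2084 (log2 fold change -1.21, SE 0.05, DESeq2 adjusted p = 1.88e-129). The canonical 3′ UTR of ADAM10 holds the letters GCTCTCA, which stand inside the sequence of the second shRNA of the sample labels. They also stand in the 3′ UTRs of TGFBR1 (log2 fold change 0.02), CSF3R (-0.02), RHBDF2 (-0.04), IFNAR1 (0.17) and IL6R (-0.17), of 0 of the 29 tested genes of the list and of 10.4% of 12722 tested genes. Their part in the fall of ADAM10 was not tested. Only these letters were searched, and none from the SPINK2 shRNA described in the methods. Matches to that shRNA in the listed genes are therefore unknown.

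IL12A and IL23A, which encode chains that each pair with the product of IL12B to form interleukin-12 and interleukin-23, moved apart. IL12A (p35; ENSG00000168811.6, chr3:159988835-159996019) had 53, 50 and 54 reads in shNEG and 28, 22 and 34 in shSPINK2, a log2 fold change of -0.91 (SE 0.30, DESeq2 adjusted p = 0.00538). IL23A (p19; ENSG00000110944.8, chr12:56334174-56340410) had 238, 255 and 222 reads against 380, 304 and 358, a log2 fold change of 0.53 (SE 0.12, DESeq2 adjusted p = 2.99e-05). The groups did not overlap for either gene, although both varied more among the shSPINK2 libraries than among the shNEG libraries. IL12B had 1 read over the 6 libraries. EBI3, whose product pairs with p35 in interleukin-35 and with p28 in interleukin-27, was listed at 0, and IL27, which encodes p28, had a mean of 1.83. The receptor chains IL12RB1 (-0.29, SE 0.30) and IL12RB2 (-0.73, SE 0.53) did not pass.

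The remaining cytokines changed by smaller amounts. IL16, encoding a CD4 ligand that attracts CD4+ cells, rose from 1099, 994 and 948 reads to 1278, 1186 and 1236 (log2 fold change 0.27, SE 0.07, DESeq2 adjusted p = 2.88e-04). TGFB1, the most abundant transcript of the list with a mean of 9532, was higher by 0.14 on the log2 scale (SE 0.04, DESeq2 adjusted p = 0.00279), and no reads per library were recovered for it. Its relatives outside the list differed, with TGFB2 higher at 0.36 (SE 0.11) and TGFB3 lower at -0.80 (SE 0.19). CSF1, the macrophage growth factor, had 196, 232 and 215 reads against 175, 185 and 170. These groups did not overlap, and the log2 fold change of -0.29 (SE 0.14) did not pass in DESeq2 (adjusted p = 0.0649) but passed in edgeR. Its receptor CSF1R was higher at 0.22 (SE 0.05, DESeq2 adjusted p = 7.69e-06). OSM, a gp130 cytokine, was at -0.18 (SE 0.64) with a mean of 8.49, and LIF had 6 reads against 1.

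Both chains of the interleukin-10 receptor were higher. IL10RB (ENSG00000243646.9, chr21:33266367-33311420), the chain that also serves other cytokines of this family, had 1266, 1106 and 1304 reads in shNEG and 1716, 1749 and 1761 in shSPINK2. Its log2 fold change was 0.50 (SE 0.07, DESeq2 adjusted p = 9.54e-13). IL10RA, the binding chain, had 692, 607 and 685 reads against 808, 742 and 836, a log2 fold change of 0.25 (SE 0.08, DESeq2 adjusted p = 0.00524). The rise of IL10RA was smaller, and its groups still did not overlap after normalization. The ligand IL10 had 7, 3 and 6 reads against 7, 5 and 7, too few to be tested.

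**Figure D4:**
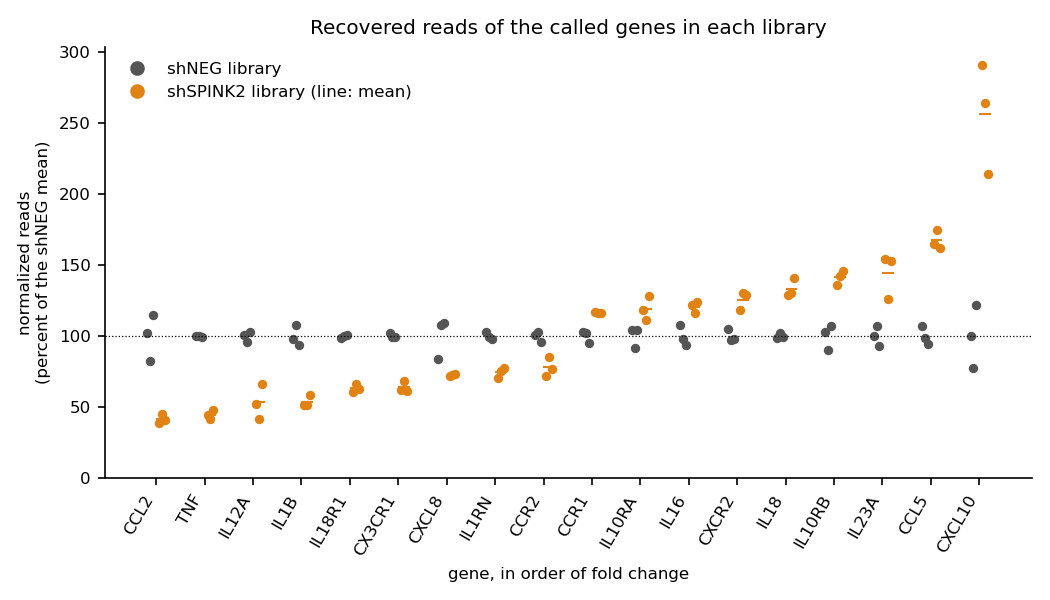
Recovered reads of the 18 genes that passed and have reads per library, divided by the size factor and given as a percentage of the shNEG mean of the gene (vertical axis, from 0), with genes in order of fold change from CCL2 to CXCL10. Grey points are shNEG and orange points shSPINK2 libraries, and in each gene the 3 orange points lie on 1 side of all grey points. Genes were drawn because they passed, so this separation adds no support. It was seen in 55.5% of the 14232 recovered genes with a mean under 3000.

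The 18 genes that were not tested had means of 0 to 5.80. IL10 and CCL3 had the highest of these, and CXCL1, IL1A, CCL7, IL15, CCR7, LTA, CCL20, LIF, IL27 and IL32 had at most 15 reads over the 6 libraries. IL32 had 3, 0 and 0 reads against 2, 7 and 3. Intervals or folds from such reads cover counting error only, since no molecular identifiers are described, and no change is read from them. At this depth, IL6, CXCL9 and CXCL12 were listed at 0.

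Around the 47 genes, a list of 117 further chemokines, cytokines, receptors, decoys and maturation enzymes gave the wider pathway. Of these, 56 were tested, 11 were lower, 17 higher and 28 did not pass, so 50.0% passed beside the 47.1% of all tested genes. Of the 29 tested receptors and decoys 18 passed (62.1%), 6 of them lower and 12 higher. Changes of more than 2-fold were seen in 4 genes (7.14% of the 56, beside 4.28% of all tested genes), IL18BP, IL18RAP and ADAM10 described above and CNTF, a neurotrophic gp130 cytokine with 61, 68 and 68 reads against 27, 31 and 31 (log2 fold change -1.16, SE 0.27, DESeq2 adjusted p = 7.21e-05). Among receptors of other cytokines, IL13RA1 (0.70, SE 0.07), IL27RA (0.61, SE 0.06), IL6ST (the gp130 chain; 0.50, SE 0.10) and IFNGR1 (0.37, SE 0.05) were higher. IFNGR2, the partner chain of IFNGR1, was at 0.10 (SE 0.06) and did not pass (DESeq2 adjusted p = 0.125). IL15RA (-0.47, SE 0.15), IL17RA (-0.28, SE 0.04), IL4R (-0.22, SE 0.05) and IL6R (-0.17, SE 0.04) were lower.

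**Figure D5:**
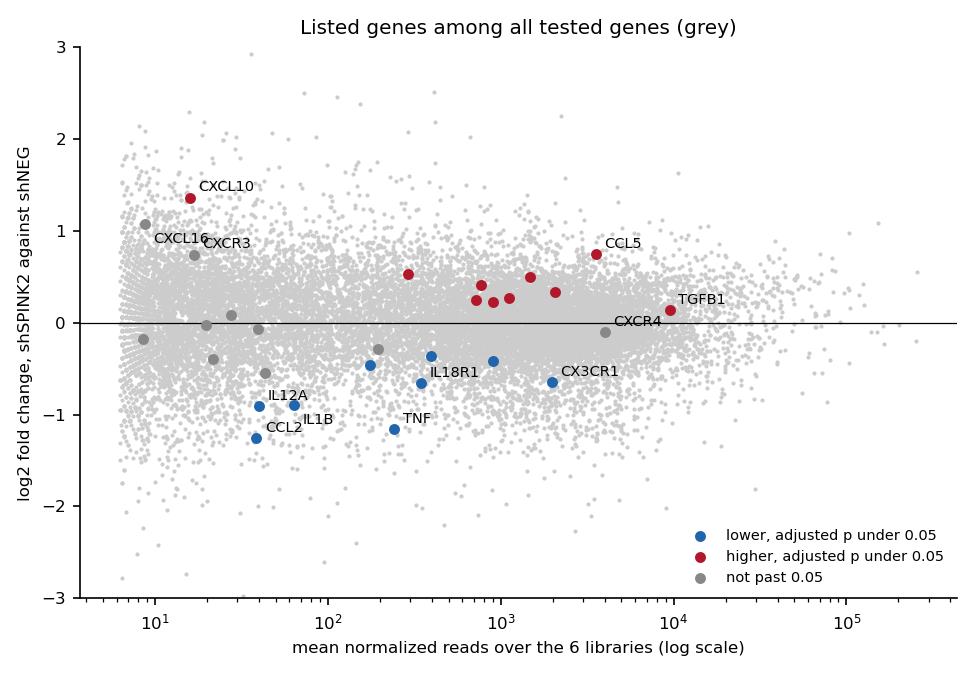
Log2 fold change (shSPINK2 over shNEG) (vertical axis) against the mean normalized reads over the 6 libraries (horizontal log axis) for the tested genes in grey (5 of them lie outside the vertical axis) and the 29 listed genes in colour, blue for lower and red for higher at an adjusted p under 0.05. CCL2, IL12A, IL1B and TNF are lower at means of 243 or less, and the highest mean belongs to TGFB1 at 0.14.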

How the data were processed

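Per the labels and the methods, mRNA libraries of FUJIOKA cells were read from both ends (150 bases each), aligned by the authors to GRCh38 (hg38) with STAR 2.7.11, counted per gene with featureCounts and compared with DESeq2 1.40.0 (versions from the submitters' processing notes; the annotation release and the strandedness of counting are not given in the sources used here). The authors' deposited table holds 1 signal per gene, the mean of size-factor-normalized counts over 6 libraries, and their comparison: the log2 fold change and its standard error, both on the log2 scale, the Wald statistic (a score), the p-value and the Benjamini-Hochberg adjusted p-value. These deposited comparison values are the calls used here, and no column holds a single library.

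Whole reads per library were recovered from the deposited mean. Genes with 1 read in 1 library share 1 of 6 means (546 to 662 genes each), from which the size factors follow; whether the fold change is positive or negative shows the group. Whole numbers were then sought whose weighted sum equals the mean and whose negative binomial fold change equals the deposited one. Exactly 1 solution was found for 14232 of 14250 tested genes with a mean under 3000 (99.9%), and listed genes were searched up to 5000. On simulated data 299 of 300 genes gave 1 solution, and all 299 were right. Listed genes too low to be tested were matched on the mean alone, and the simulation did not cover them. The recovered libraries carry no replicate number. edgeR 4.0.16 (quasi-likelihood, R 4.3.3, limma 3.58.1), run on these reads as an alternative, called 7156 of 14240 genes (50.3%), and on simulated data called 160 of 200 changed genes and 9 unchanged ones. DESeq2 had called 5864 of the same 14240 genes, all of them also called by edgeR, so edgeR called more genes on these data.

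The 47 symbols matched 65 rows. The 18 further rows are copies on alternate haplotypes, all at 0, and were left out. Positions come from GENCODE 44 and start regions from RefSeq (GRCh38.p14), with motifs searched on both strands. Genes named outside the 47 are those of the pathway list past both thresholds and direct ligands, receptors, decoys or processing enzymes of a gene described. IFNGR1, IFNGR2, IL4R, IL13RA1, IL17RA, IL1RL1, TGFBR1, CSF3R, RHBDF2, IFNAR1, SIGIRR, TGFB2, TGFB3, AIM2, NLRP3, GSDMD and PYCARD were chosen after their values were seen. The members, lists and tests were chosen with earlier results of these data known. An adjusted p-value under 0.05 was the threshold. Alternatives were a threshold of 0.01, other adjustments and filters, centred fold changes, edgeR and leaving out each recovered library. The tools were matplotlib 3.10.9, numba 0.67.0, scipy 1.17.1, pandas 2.3.3, numpy 2.4.6 and Python 3.11.15.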

Additional observations from a re-analysis of the deposited data

How the results depend on the processing

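The counts of listed genes that were lower (9) or higher (10) at an adjusted p under 0.05 stayed within 1.5 times under each alternative run. With a minimum mean of 50 they were 9 and 9, but CCL2, IL12A and CXCL10 were no longer tested while CXCR4 and CSF1 were gained as lower. They were 9 and 9 at a threshold of 0.01, where CXCL10 was lost, and 10 and 10 with fold changes centred on the median, where CXCR4 was gained. edgeR on the recovered reads gave 11 and 11, with CXCL2, CXCL16, CSF1 and CXCR3 gained and TGFB1 not tested. The next settings were chosen after seeing the data: edgeR with TMM factors (12 and 11) and edgeR without each library in turn (9 to 12 lower and 9 to 11 higher), in which each called gene other than TGFB1, not tested there, still passed. Past a 1.5-fold in place of a 2-fold change, 6 genes were lower and 2 higher. When DESeq2's Wald test was computed again against a log2 fold change of 1, 0 genes passed in either direction, and 0 had an unadjusted p under 0.05. The direction of the 19 called genes and of SPINK2 held in each alternative that tested them, which leaves out CCL2, IL12A, CXCL10 and SPINK2 for the minimum mean and TGFB1 for edgeR and leave-one-out. Leaving out each library in turn turned the sign of IL1R2 (-0.17 to 0.17), CXCL3 (-0.09 to 0.26), OSM (-0.61 to 0.16) and CCL22 (-0.15 to 0.05), none of which had been called. The pathway list kept 10 lower and 16 higher genes at 0.01. No paired analysis was possible because the recovered libraries carry no replicate number. CCL2, CXCL10 and IL12A rest on at most 63 reads per library.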
